A study of Mus musculus with 111 samples.

Results

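Gene expression in the mouse tuberomammillary nucleus (TMN) was compared between early light, when mice mostly sleep, and early dark, when they are mostly awake, in animals that had received a control virus. The members were the control-virus samples taken at zeitgeber time 4 (ZT4, counted from lights on) and at ZT16, which came to 25 of the 111 samples of the series. ZT4 held 5 GFP and 6 H3.3 samples, and ZT16 held 6 GFP and 8 H3.3 samples. The TMN lies in the posterior hypothalamus and holds the histamine neurons of the brain. All animals were adult C57BL/6 mice (C57BL/6J in the methods) of both sexes kept in alternating light and dark. Each carried an adeno-associated virus in the TMN on both sides, either an empty vector that expressed GFP or a vector that expressed wild-type histone H3.3 with Flag and HA tags, and both vectors also made GFP from an internal ribosome entry site. The H3.3 vector with the Q5A mutation, which removes the glutamine that can carry a monoamine, served here only for comparison. The methods describe a dissection of infected tissue under GFP light, where the submitted protocol describes small punches, and either piece holds neurons and glia of the TMN and its surroundings, infected or not. In such bulk tissue, fewer cells of a type and less RNA per cell cannot be told apart.

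The molecular clock is a loop in which CLOCK and ARNTL (BMAL1) switch on the Per, Cry, Nr1d1, Ciart and Dbp genes through DNA motifs called E-boxes, and PER and CRY proteins then shut that activity down. In night-active mice, adrenal glucocorticoid climbs toward the dark phase and switches on target genes such as Tsc22d3 and Per1 through the glucocorticoid receptor. Time awake is known to go with higher transcripts of chaperones, of the unfolded protein response and of immediate early genes in brain tissue. Histamine neurons, marked by the histamine-making enzyme Hdc, fire during waking.

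No gene passed the test between ZT4 and ZT16. With edgeR's quasi-likelihood test and virus as covariate, 0 of 11216 genes had an adjusted p under 0.05 (0%), and the lowest adjusted p was 0.0834. An unadjusted p under 0.05 was given to 624 genes that were higher at ZT16 (5.56%) and to 587 that were lower (5.23%). DESeq2, run on the same genes and design, called 15 genes, 5 higher and 10 lower at ZT16 (0.134% of 11207 genes with an adjusted p). The count of 0 rested on single samples. When the H3.3 ZT4 sample of cohort 3, replicate 1, was left out, edgeR called 60 of 11078 genes (0.542%), 16 of them higher and 44 lower at ZT16. Leaving out the H3.3 ZT16 sample of cohort 2, replicate 1, gave 16 calls, leaving out the cohort 1 samples of H3.3 ZT16 with replicate numbers 1 and 2 gave 1 and 2 calls, and none was called without any other single sample. Leaving out all 3 cohort 3 samples, a setting chosen after the results were seen, gave 64 of 10888 genes (0.588%), 22 higher and 42 lower. All 64 had the same sign in the fit of the 25 samples, which was nearly certain because that fit holds every sample that called them.

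The samples themselves were similar in depth. Reads in gene rows ran from 1063307 to 1873610 per sample with a median of 1482645, and the mean was 1432159 ± 191361 (SD, n = 11) at ZT4 and 1436382 ± 253946 (SD, n = 14) at ZT16 (2-sided permutation test, p = 0.964). Cohorts were spread unevenly, with 9, 1 and 1 samples of cohorts 1, 2 and 3 at ZT4 and 8, 4 and 2 at ZT16, so that only cohort 1 could be compared within itself. That comparison of 17 samples called 23 of 10167 genes (0.226%), 14 higher and 9 lower at ZT16. On the first principal component, which held 24.8% of the variance, the cohort 3 samples of H3.3 ZT16 replicate 1 (102.0) and H3.3 ZT4 replicate 1 (59.2) stood apart from the other 23, which lay between -36.9 and 27.2.

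The reads that the gene rows hold set a limit on every value below. Gene rows took only 3.74% to 5.18% of the uniquely placed reads in these samples. Counting kept reads on the annotated strand, while the first read of this kit runs against the transcript. A row that overlaps a gene on the other strand can thus hold the reads of that gene, and rows were sorted by position. Of the rows tested, 4981 had no exon on the other strand, 3829 overlapped an exon there, and 2406 had names with no position in the annotation used. The first class held 12% ± 2.85 of the gene reads at ZT4 (SD, n = 11) and 13% ± 2.18 at ZT16 (SD, n = 14), and the class without a position held 36.0% ± 1.92 and 35.0% ± 1.45. The sample of H3.3 ZT4 cohort 3 replicate 1 had 19.5% in the first class, above all 24 others. The median log2 difference between ZT16 and ZT4 was 0.11 in rows with no exon on the other strand, -0.01 in rows with one and -0.11 in rows with no position, against 0.02 over all rows. Among rows of the first class, 8.37% were higher and 3.57% lower at an unadjusted p under 0.05, and lists of ordinary genes are set beside these shares below. The classes entered 2 fits that were chosen after the results were seen. With the share of the first class as covariate, the median of that class was 0.06. That fit called 5 genes, all higher at ZT16, Tsc22d3, Etnppl and Pnma1 among them. With only rows of the first class normalised and tested, 5 were called, 2 higher and 3 lower. Beyond these fits, the part of this tilt between classes in any single difference was not tested.

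**Figure D1:**
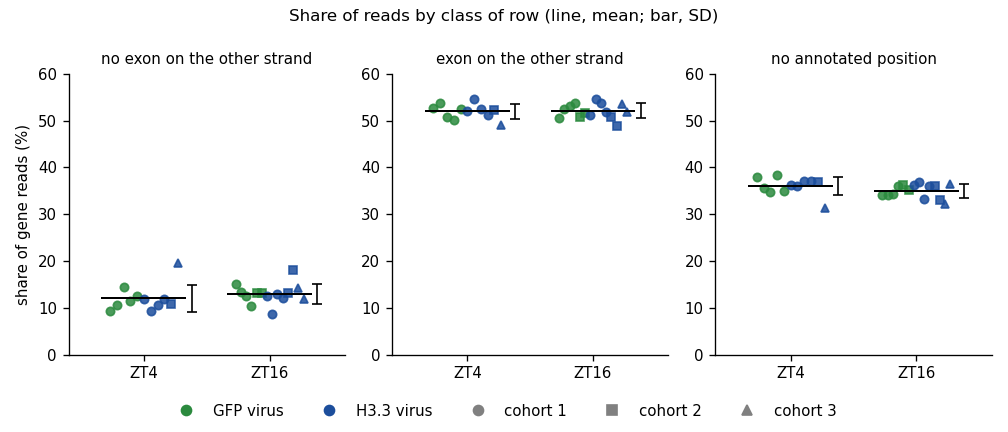
Share of gene reads (%) in each class of row for every sample at ZT4 and ZT16, coloured by virus and shaped by cohort, with the mean as a line and the SD as a bar. The H3.3 ZT4 sample of cohort 3 lies at 19.5% in rows with no exon on the other strand, above the other ZT4 samples.

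Tsc22d3 had the smallest p of all rows. It encodes the glucocorticoid-induced leucine zipper protein, a textbook target of the glucocorticoid receptor, and lies on chromosome X, 140539528 to 140600659, minus strand (GRCm38), with no exon on the other strand. Its normalised read count (reads scaled to the mean library) was 1.19 at the lowest, 5.02 at the median and 9.92 at the highest at ZT4, and 4.78, 14.1 and 22.5 at ZT16. The ranges overlapped, but 13 of the 14 ZT16 samples lay above the ZT4 median. On the log2 scale, with a prior count of 2 that shrinks differences of low rows, Tsc22d3 was higher at ZT16 by 1.12 ± 0.22 (SE, adjusted p = 0.0834, edgeR). The row is thin, with a median of 9 reads per sample. DESeq2 gave it an adjusted p of 0.0123, and edgeR gave 0.0152 without cohort 3 and 0.0393 in cohort 1 alone. Across the day the control mean was lowest at ZT4 (5.58 ± 2.80, SD, n = 11), and it was 14.8 ± 8.25 (SD, n = 13) at ZT12, 14.3 ± 5.64 (SD, n = 14) at ZT16 and 14.6 ± 8.11 (SD, n = 11) at ZT20.

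Etnppl, an enzyme of phosphoethanolamine breakdown that is best known from astrocytes, was next among the higher rows. It lies on chromosome 3, 130617448 to 130637521, plus strand, with no exon on the other strand. Its counts were 7.58, 11.2 and 31.2 at ZT4 (lowest, median, highest) and 12.9, 24.2 and 42.6 at ZT16. All 14 ZT16 samples exceeded the ZT4 median, and the only ZT4 sample above 15 was H3.3 cohort 3 replicate 1, at 31.2. The log2 difference was 0.90 ± 0.20 (SE, adjusted p = 0.118), and without cohort 3 it was 1.12 ± 0.19 (SE, adjusted p = 0.00538, both edgeR). The summed level of 9 astrocyte markers was 490 ± 160 (SD, n = 11) at ZT4 and 585 ± 165 (SD, n = 14) at ZT16, and its part in the Etnppl difference was not tested.

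The other 3 rows with the smallest p among those higher at ZT16 were Pnma1 and 2 rows with clone-based names. Pnma1, a neuronal antigen of paraneoplastic disease, lies on chromosome 12, 84146131 to 84148489, minus strand, and overlaps an exon of Dnal1, and which of these genes gave its reads was not tested. Its counts ran from 9.02 through 19.3 to 34.3 at ZT4 and from 14 through 34.3 to 60.2 at ZT16, with a log2 difference of 0.90 ± 0.20 (SE, adjusted p = 0.118, edgeR). RP23-428C21.5, a clone-based name with no position here, had medians of 16.1 at ZT4 and 34.8 at ZT16 and a log2 difference of 0.96 ± 0.22 (SE, adjusted p = 0.118, edgeR). The other clone-based row, also without a position, had a median of only 4 reads per sample and a log2 difference of 1.43 ± 0.34 (SE, adjusted p = 0.118, edgeR). In each of the 3 rows, 13 or 14 of the 14 ZT16 samples lay above the ZT4 median.

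Fcer2a had the smallest p among rows that were lower at ZT16. It encodes the low-affinity IgE receptor of B cells and lies on chromosome 8, 3681737 to 3694175, minus strand, with no exon on the other strand. Its counts were 15.2, 28.5 and 52.4 at ZT4 and 6.79, 13.3 and 31.8 at ZT16, and 13 of 14 ZT16 samples lay below the ZT4 median. The log2 difference was -1.0 ± 0.20 (SE, adjusted p = 0.0834, edgeR). Each virus gave a like value, at -1.02 in GFP and -0.99 in H3.3, and cohort 1 alone gave -1.02.

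Oxct2b, Gramd2, Gucy2e and Zfp667 completed the lower rows. Oxct2b, a ketone-body enzyme known from testis (chromosome 4, 123116266 to 123118000, plus strand), overlaps an exon of Gm17244. Its counts went from 25.6 through 43.0 to 70.3 at ZT4 and from 9.48 through 20.1 to 46.8 at ZT16, with a log2 difference of -0.87 ± 0.18 (SE, adjusted p = 0.0900, edgeR). Gramd2 (chromosome 9, 59680144 to 59718874, plus strand) had medians of 27.5 and 13 and a log2 difference of -0.87 ± 0.18 (SE, adjusted p = 0.0900, edgeR). Gucy2e, a guanylate cyclase of photoreceptors (chromosome 11, 69218117 to 69237036, minus strand), had medians of 62.7 and 36.7, with all 14 ZT16 samples under the ZT4 median and a log2 difference of -0.79 ± 0.17 (SE, adjusted p = 0.102, edgeR). Zfp667, a zinc finger protein (chromosome 7, 6286579 to 6307883, plus strand), had medians of 45.5 and 27.4, again with all 14 below the ZT4 median, and a log2 difference of -0.82 ± 0.18 (SE, adjusted p = 0.118, edgeR). None of the last 3 overlaps an exon on the other strand. Fcer2a, Oxct2b and Gucy2e are known from cells other than those of the hypothalamus, and which transcripts gave their reads was not tested.

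**Figure D2:**
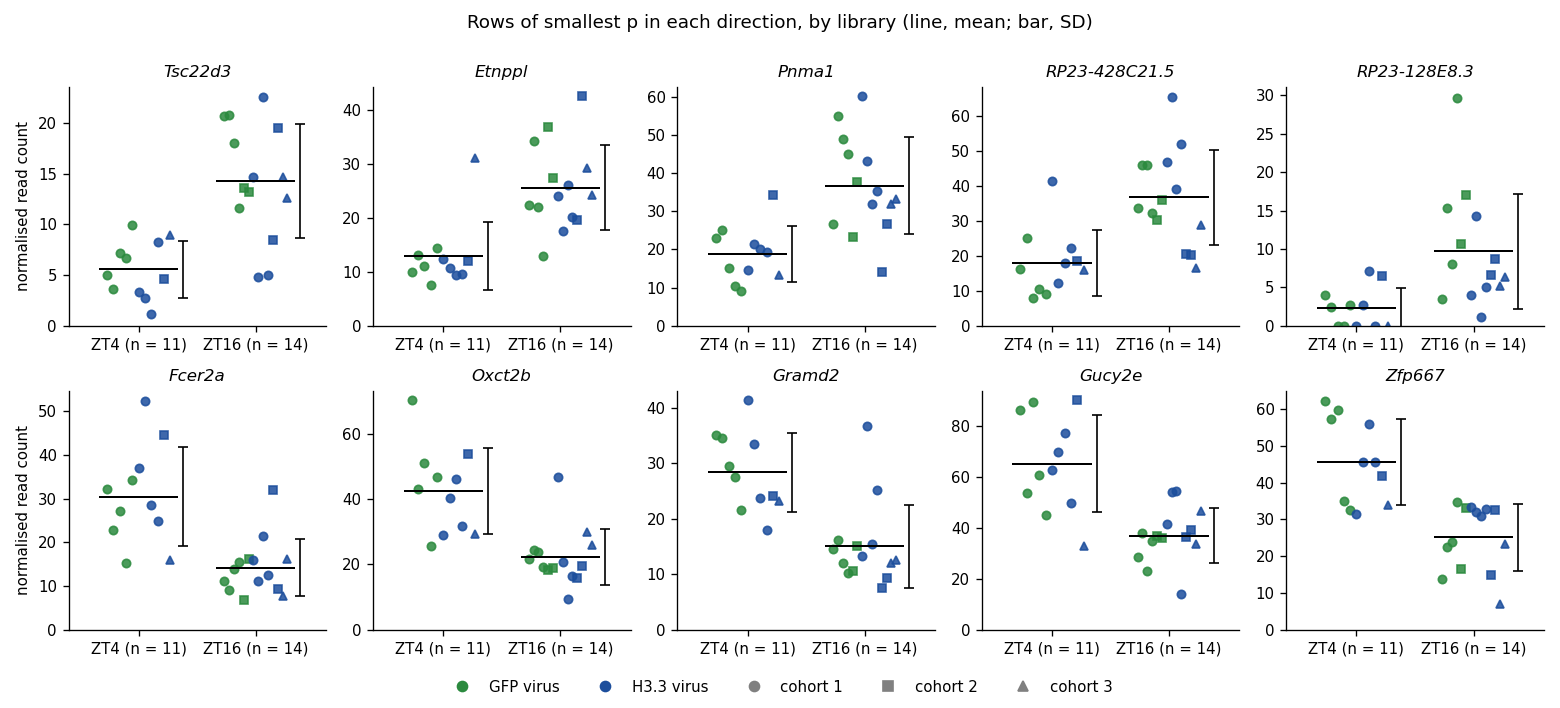
Normalised read count of the 10 rows with the smallest p, 5 in each direction, for every sample at ZT4 and ZT16, coloured by virus and shaped by cohort, with the mean as a line and the SD as a bar. Medians of Tsc22d3 are 5.02 and 14.1 and those of Fcer2a 28.5 and 13.3, and the ranges of the 2 times overlap in all 10 rows.

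The rows called without the cohort 3 samples included all 10 rows above and further named genes, chosen here after their values were seen. Gpt2, which makes glutamate and pyruvate from alanine, was higher at ZT16 by 0.92 ± 0.15 (SE, log2, adjusted p = 0.00538, edgeR), and in the fit of all 25 samples by 0.68 ± 0.18 (SE, adjusted p = 0.187, edgeR). Its counts were 15.1, 22.6 and 60.5 at ZT4 and 23.4, 40.1 and 54.8 at ZT16, with all 14 ZT16 samples above the ZT4 median. Fam107a, a stress- and glucocorticoid-responsive actin regulator, was higher by 1.04 ± 0.22 without cohort 3 (SE, adjusted p = 0.0261, edgeR) and by 0.72 ± 0.25 with it (SE, adjusted p = 0.306, edgeR). Tlr9, a receptor for microbial DNA in immune cells, had counts of 1.78, 61.3 and 81.3 at ZT4 and 8.02, 29.2 and 44.7 at ZT16, all 14 under the ZT4 median. It was lower at ZT16, with a log2 difference of -1.03 ± 0.17 without cohort 3 (SE, adjusted p = 0.00538, edgeR) and -0.96 ± 0.24 with it (SE, adjusted p = 0.151, edgeR). Calls that appeared under all of DESeq2, the fit without cohort 3, the fit without the H3.3 ZT4 cohort 3 sample, cohort 1 alone and the fit of all samples of the series (51 of 13891 genes, 0.367%) were 6 in number: Chrnb1, Etnppl, Fcer2a, Pnma1, RP23-428C21.5 and Tsc22d3. Chrnb1, a subunit of the muscle acetylcholine receptor, had a log2 difference of -0.78 ± 0.18 (SE, adjusted p = 0.118, edgeR) in the fit of 25 samples. These 5 fits share most of their samples.

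Among the core clock genes, Per1 had the smallest p. The list held 20 genes, of which 13 passed the filter on low counts, and 3 of the 13 were higher at an unadjusted p under 0.05 while none was lower. Among rows with no exon on the other strand, 8.37% were higher and 3.57% lower at that level. The median log2 difference of the 13 was 0.17, beside 0.11 for all rows with no exon on the other strand. Per1, a repressor of the loop (chromosome 11, 69095217 to 69109960, plus strand), had counts of 2.38, 8.12 and 15.7 at ZT4 and 4.78, 15.4 and 25.2 at ZT16, with 12 of 14 ZT16 samples above the ZT4 median. Its log2 difference was 0.71 ± 0.21 (SE, unadjusted p = 0.00166, adjusted p = 0.227, edgeR). Per2, its partner (chromosome 1, 91415982 to 91459324, minus strand), had medians of 6.02 and 10.7 and a log2 difference of 0.49 ± 0.22 (SE, adjusted p = 0.441, edgeR). The last of the 3, Csnk1d, a kinase that marks PER proteins for breakdown, was higher by 0.37 ± 0.15 (SE, adjusted p = 0.367, edgeR), and its row overlaps an exon of Gm28192. Without cohort 3, 6 of the 13 were higher and 1 lower at an unadjusted p under 0.05, with none called and a median of 0.27. The same setting put 17.0% of all rows with no exon on the other strand higher and 4.48% lower, with a median of 0.17.

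The other clock rows named here had adjusted p-values of 0.615 or more. Clock, an activator (chromosome 5, 76209868 to 76304792, minus strand), had a log2 difference of -0.19 ± 0.14 (SE, adjusted p = 0.615, edgeR). Nr1d1 (REV-ERBα, chromosome 11, 98767932 to 98775333, minus strand), a repressor whose row shares bases with an exon of Thra, had a median of 3254 at ZT4 and 2848 at ZT16, beside 545 and 533 in the row of Thra, and a log2 difference of -0.12 ± 0.11 (SE, adjusted p = 0.697, edgeR). Dbp, a clock output factor (chromosome 7, 45705088 to 45710203, plus strand) whose row overlaps Sphk2, had a log2 difference of 0.16 ± 0.17 (SE, adjusted p = 0.732, edgeR). The rows of those partners had log2 differences of -0.03 ± 0.12 for Thra and 0.20 ± 0.15 for Sphk2 (SE). Which genes gave the reads of the Nr1d1 and Dbp rows was not tested. Ciart, a repressor of the loop (chromosome 3, 95878503 to 95882251, minus strand), had medians of 14.3 at ZT4 and 10.1 at ZT16 and a log2 difference of -0.19 ± 0.26 (SE, adjusted p = 0.802, edgeR). Cirbp, a cold-induced RNA-binding protein (chromosome 10, 80165985 to 80172786, plus strand), had medians of 11.9 and 11.7 and a log2 difference of -0.08 ± 0.19 (SE, adjusted p = 0.885, edgeR). Arntl and Cry1 were under the filter, with medians of 7 and 4 reads per sample. Of the 14 clock output genes, 10 passed the filter and none had an unadjusted p under 0.05. Without cohort 3, 5 of the 10 did, with Tef, Hlf and Wee1 higher and Avp and Tspan4 lower, and none was called.

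**Figure D3:**
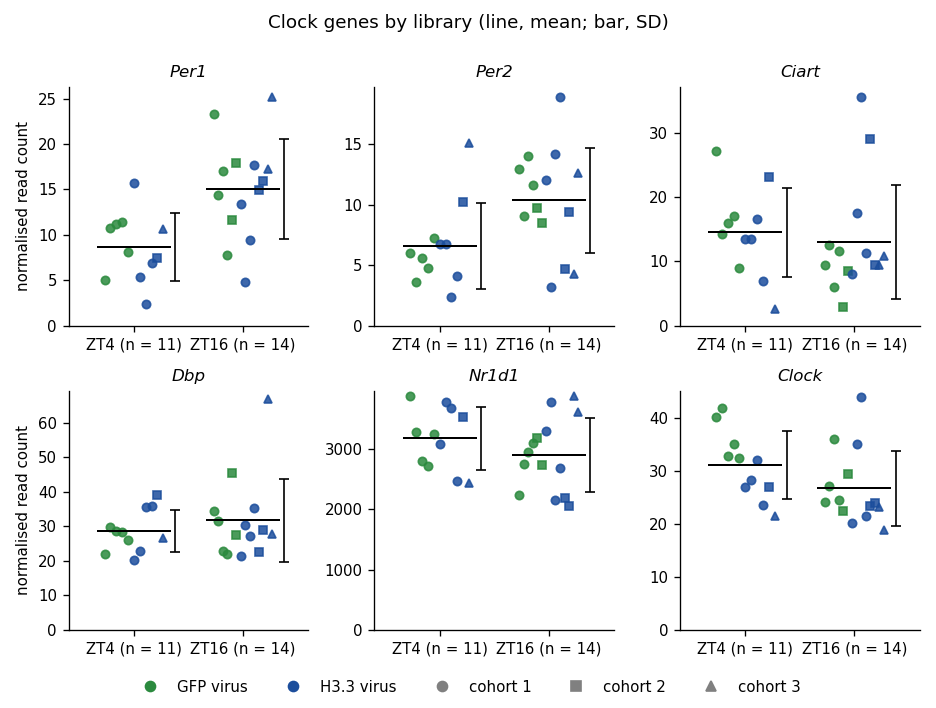
Normalised read count of 6 clock genes for every sample at ZT4 and ZT16, coloured by virus and shaped by cohort, with the mean as a line and the SD as a bar. The means of Per1 are 8.62 and 15.0 and those of Dbp 28.7 and 31.8, with overlapping ranges in all 6 panels. The rows of Nr1d1 and Dbp overlap Thra and Sphk2 on the other strand and can hold reads of those genes.

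The E-box, the motif CACGTG, which reads the same on both strands, was searched in the 250 bases before the start of each gene in RefSeq promoters of GRCm38.p6. It was found in 4 of the 15 core clock genes that the table holds (Per1, Cry1, Bhlhe41 and Ciart, 26.7%) and in 6.86% of all 27025 genes. Of the 14 clock output genes, 11 were in the table and 4 had a match (36.4%). The window of Per1 is shown because Per1 had the smallest p of the clock list. Ciart is shown for the difference between viruses described below. Of the 3 windows found for Ciart, the one that overlaps the window labelled proximal is left out. Its E-box starts 44 bases before the gene start, nearer than the one labelled proximal, at 58 bases. The window labelled proximal ends in the first letters of that E-box, which are not marked. The capitals mark the E-box, and the windows are chr11:69098771-69098800 on the plus strand for Per1 and chr3:95882327-95882356 and chr3:95882269-95882298 on the minus strand for Ciart. The RefSeq start of Per1 that this window precedes lies inside the longer span given above, which is that of the GENCODE gene.
Per1: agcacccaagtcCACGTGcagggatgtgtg
Ciart, distal: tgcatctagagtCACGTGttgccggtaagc
Ciart, proximal: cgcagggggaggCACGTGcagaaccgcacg
A match is a description of the letters and not of a site in use.

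Glucocorticoid-responsive genes held the largest share of higher rows among the pathway lists, and the list shares Per1 with the clock list. Of 17 genes, 11 passed the filter, 5 were higher at ZT16 at an unadjusted p under 0.05, and none was lower. At that level 8.37% of rows with no exon on the other strand were higher and 3.57% lower, and over all rows 5.56% and 5.23%. The median log2 difference was 0.22. After Tsc22d3 and Per1, Mt1, a metal-binding metallothionein, was higher by 0.75 ± 0.28 (SE, adjusted p = 0.347, edgeR), from counts of 6.72, 28.9 and 57.0 at ZT4 to 14.4, 43.4 and 188 at ZT16. Its neighbour Mt2 was higher by 0.62 ± 0.28 and the lipid-droplet protein Plin4 by 0.49 ± 0.23 (SE, adjusted p = 0.435 and 0.446, edgeR), and both rows overlap an exon on the other strand, of Gm45774 and Hdgfl2. Without cohort 3, 3 of the 11 were higher at an unadjusted p under 0.05, beside 17.0% of rows with no exon on the other strand. Of the 11, only Tsc22d3 was called there. In cohort 1 alone the difference of Mt2 was 0.01.

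Lists of chaperone and unfolded-protein genes each had 4 rows at an unadjusted p under 0.05, all higher at ZT16. Among rows with no exon on the other strand, 8.37% were higher at that level. The median of those rows was 0.11 and their lower quartile -0.06, so most of them also had a positive difference. Of the 18 genes of endoplasmic reticulum stress, 15 passed the filter, 14 of them had a positive difference, 4 were higher at an unadjusted p under 0.05 and the median was 0.25. Xbp1, the factor spliced by the stress sensor IRE1, had counts of 8.27, 15.9 and 23.1 at ZT4 and 14.4, 22.0 and 28.3 at ZT16, with 13 of 14 ZT16 samples above the ZT4 median and a log2 difference of 0.42 ± 0.15 (SE, adjusted p = 0.335, edgeR). Herpud1, which helps to clear misfolded proteins, was higher by 0.63 ± 0.23, and the factor Atf4 by 0.48 ± 0.22 (SE, adjusted p = 0.342 and 0.430, edgeR). Of the 18 heat shock and chaperone genes, 14 passed the filter, 9 of them had a positive difference, 4 were higher and none lower at an unadjusted p under 0.05, and the median was 0.21. Dnajb1, a co-chaperone of HSP70, was higher by 0.57 ± 0.20 and the abundant Hsp90ab1 by 0.31 ± 0.14 (SE, adjusted p = 0.306 and 0.427, edgeR). The core of the heat shock element, GAANNTTC on either strand, was found before the start of 6 of the 13 list members in the promoter table (46.2%) and of 7.73% of all genes, namely Hspa1a, Hspa1b, Hspb1, Dnaja1, Hspd1 and Hspe1. The counts of these lists grew without cohort 3, to 8 of 14 for endoplasmic reticulum stress and 7 of 14 for heat shock, beside 17.0% of all rows with no exon on the other strand, and none was called. Without the H3.3 ZT4 sample of cohort 3 alone, Dnajb1 was called, higher by 0.77 ± 0.18 (SE, adjusted p = 0.0460, edgeR).

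Genes of glucose use had mostly positive differences, few of which reached an unadjusted p under 0.05. Of 22 genes of glycolysis and glucose handling, 18 passed the filter and 16 of them were above 0, with a median of 0.29 beside 0.11 for the class. Slc2a3, the neuronal glucose transporter GLUT3, was higher by 0.42 ± 0.20 and Pygb, the brain glycogen phosphorylase, by 0.29 ± 0.14 (SE, adjusted p = 0.446 and 0.460, edgeR), and no other member had an unadjusted p under 0.05. Without cohort 3, 10 of the 18 did, all higher, beside the 17.0% of rows given above, and none was called. Immediate early genes were mostly too low to test, with 11 of 25 past the filter. Jun, a subunit of the AP-1 factor whose row overlaps Junos, was the only one at an unadjusted p under 0.05, with a log2 difference of 0.48 ± 0.18 (SE, adjusted p = 0.355, edgeR), and Fos had a median of 4 reads. In the fit of 25 samples, 8.37% of rows with no exon on the other strand were higher at an unadjusted p under 0.05.

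**Figure D4:**
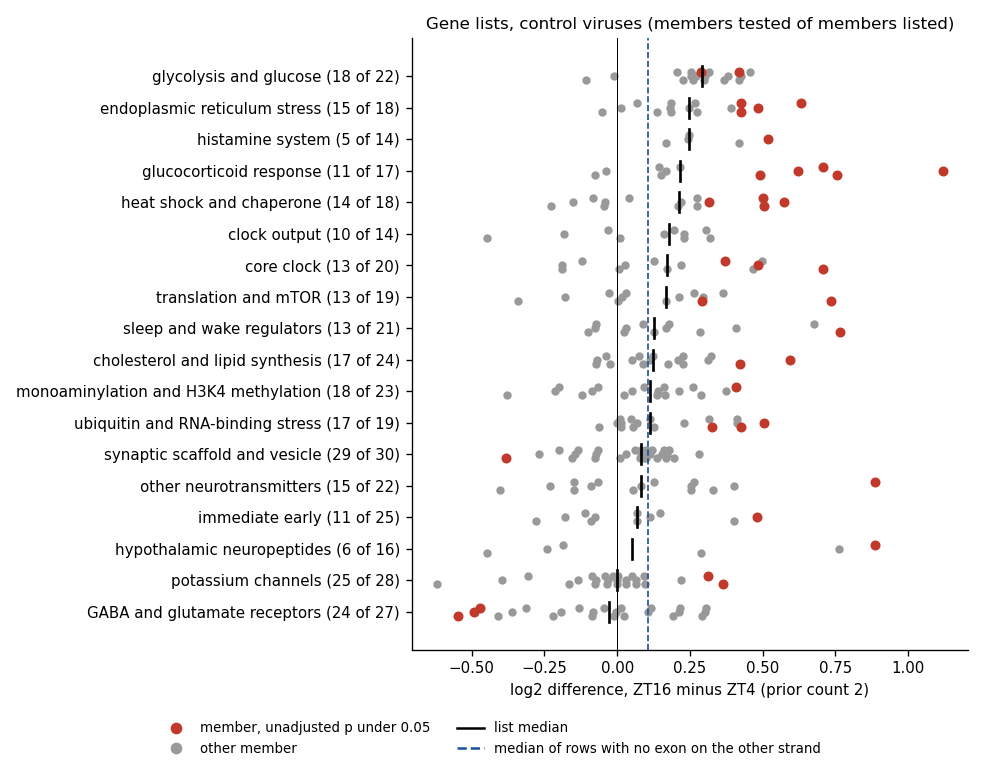
Log2 difference between ZT16 and ZT4 of each list member that passed the filter, with red points for an unadjusted p under 0.05, a black bar for the list median and a dashed line for the median of rows with no exon on the other strand (0.11). Medians run from -0.03 for GABA and glutamate receptors to 0.29 for glycolysis and glucose.

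Receptor genes were the only list with several lower rows. Of 27 GABA and glutamate receptor genes, 24 passed the filter, 3 were lower and none higher at an unadjusted p under 0.05, and the median was -0.03. Over all rows tested, 5.23% were lower and 5.56% higher at that level. The NMDA receptor subunit Grin2b had counts of 14.2, 23.9 and 42.7 at ZT4 and 8.99, 16.2 and 31.8 at ZT16, with a log2 difference of -0.47 ± 0.18 (SE, adjusted p = 0.347, edgeR). Its sister subunit Grin2a had a log2 difference of -0.55 ± 0.20 and the GABA receptor subunit Gabra5 one of -0.49 ± 0.19 (SE, adjusted p = 0.347 and 0.367, edgeR). The rows of Grin2b and Gabra5 overlap predicted genes on the other strand. Without cohort 3, the list had 3 higher rows and 1 lower row, Gabra5, among 23 tested at an unadjusted p under 0.05 and a median of 0.14. In the list of synaptic scaffold and vesicle genes, 29 of 30 passed the filter and 1, the adhesion protein Nlgn1, whose row overlaps A830092H15Rik, was lower, with a log2 difference of -0.38 ± 0.15 (SE, adjusted p = 0.381, edgeR).

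Genes of histamine and arousal were sparse. Hdc, the defining enzyme of the TMN, had a median of 4 reads and a range from 0 to 53 and did not pass the filter, so the labelled tissue could not be checked by it. Its mean normalised count was 2.63 ± 2.40 (SD, n = 11) at ZT4 and 10.5 ± 11.1 (SD, n = 14) at ZT16. Controls at ZT8 and ZT12 had 8.22 ± 5.03 and 9.61 ± 9.77 (SD, n = 13 each). Those at ZT0 and ZT20 had 3.16 ± 3.38 (SD, n = 9) and 3.26 ± 3.15 (SD, n = 11), near the ZT4 mean. In Q5A samples the means went the other way, from 13.2 ± 11.3 at ZT4 to 5.90 ± 4.77 at ZT16 (SD, n = 7 each). With no filter on low counts, edgeR called Hdc higher at ZT16 by 1.49 ± 0.26 (SE, adjusted p = 2.31e-05), and it also called Cartpt (adjusted p = 0.0203) and Pmch (adjusted p = 0.00826). That fit called 100 of 30085 genes, with Tph2 and Slc6a4 among the higher and Slc6a3 among the lower. Its SE for Cartpt was 0.22, where the filtered fit gave 0.34 for the same samples. Of 14 histamine genes, 5 passed the filter, all above 0, and 1 had an unadjusted p under 0.05, the monoamine transporter Slc29a4, which was higher by 0.52 ± 0.23 (SE, adjusted p = 0.418, edgeR). The summed level of 6 histamine neuron markers was 113 ± 22.7 (SD, n = 11) at ZT4 and 141 ± 25.8 (SD, n = 14) at ZT16. Most of that sum was the row of Slc18a2, a vesicular monoamine transporter, with means of 81.8 ± 29.8 and 95.8 ± 31.6 (SD). Lhx6 alone had a lower mean at ZT16, at 5.18 against 7.39. Among 21 sleep and wake regulators, 13 passed the filter and 1, the muscarinic receptor Chrm3, was higher at an unadjusted p under 0.05, by 0.77 ± 0.26 (SE, adjusted p = 0.306, edgeR). Of all rows with no exon on the other strand, 8.37% were higher at that level. Cartpt, a peptide of the lateral and posterior hypothalamus, was higher by 0.89 ± 0.34 (SE, adjusted p = 0.347, edgeR), with counts from 0.948 to 21.5 at ZT4 and from 0 to 43.0 at ZT16. The neighbouring region's peptides Pmch and Hcrt had 0 to 215 and 0 to 199 reads per sample, a spread that covers both times.

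The other lists gave few differences. Cholesterol and lipid synthesis had 2 higher rows among 17 tested (Cyp51 and Scd1), translation and mTOR 2 among 13 (Eif4ebp2 and Rptor), ubiquitin and RNA-binding stress 3 among 17 (Ubb, Luc7l and Uba1), monoaminylation and H3K4 methylation 1 among 18 (Men1), and potassium channels 2 among 25, with none lower in any of them at an unadjusted p under 0.05. At that level 8.37% of rows with no exon on the other strand were higher, and 5.56% of all rows tested. The rows of Cyp51 and Rptor overlap Akap9 and Rptoros on the other strand. Ubb, a ubiquitin gene, was called without cohort 3, higher by 0.64 ± 0.15, where the fit of 25 samples gave 0.51 ± 0.22 (SE, adjusted p = 0.0481 and 0.412, edgeR). Eif4ebp2, a brake on translation, was higher by 0.73 ± 0.21 (SE, adjusted p = 0.227, edgeR). No gene of the mitochondrial genome passed the filter, of 15 listed. Other transmitter genes (15 of 22 tested) and hypothalamic neuropeptides (6 of 16) each had Cartpt as their only row at that level.

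Markers of other cell types were summed in each sample. Neuron markers had a mean of 8607 ± 3179 (SD, n = 11) at ZT4 and 7412 ± 3179 (SD, n = 14) at ZT16, oligodendrocyte markers 2902 ± 1086 and 3191 ± 1454, microglia markers 456 ± 74.3 and 462 ± 141, and ependymal and choroid markers 561 ± 101 and 543 ± 154. Endothelial and blood markers had the largest ratio, from 33.4 ± 13.1 to 54.3 ± 41.0, and a range from 6.38 to 175 at ZT16. The 12 pituitary and pars tuberalis markers summed to 313 ± 34.2 and 356 ± 59.9, with Cga, Prl, Gh, Fshb and Tbx19 at a median of 0 reads. The 10 striatal markers summed to 154 ± 32.9 and 159 ± 47.4, with Drd1 and Adora2a at a median of 0, and the 5 lateral hypothalamus markers to 141 ± 139 and 196 ± 143. The ranges of the 2 times overlapped in all 10 marker lists, and their part in the gene differences was not tested.

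The contrast was then compared between the 2 control viruses. The difference between ZT16 and ZT4 was set against virus as an interaction, and 0 of 11216 genes passed (0%, edgeR), with 213 at an unadjusted p under 0.05, while DESeq2 called 0 as well. Over the 9032 genes with a value in each virus, 66.8% had the same sign in GFP and H3.3 and the 2 sets of log2 differences had a Pearson r of 0.40, a description across genes that share libraries, depth and row class. GFP alone gave 1115 of 9944 genes at an unadjusted p under 0.05 (11.2%) and H3.3 alone 265 of 9155 (2.89%, edgeR), with none called in either. Ciart had a log2 difference of -0.82 in GFP and 0.31 in H3.3, with an interaction p of 0.0339 before adjustment for all genes (edgeR). The lowest adjusted interaction p of any gene was 0.9998 (edgeR), so this difference between viruses did not pass. Tsc22d3 had 1.12 in GFP and did not pass the filter in H3.3 alone.

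The same contrast in the Q5A samples, which took no part in the fit of the 25, gave a further reading of the named rows. It held 7 samples at each time once a pair of ZT4 tables with the same counts in nearly all gene rows had been counted as 1 sample. No gene passed in it (0% of 9902, edgeR), and 547 had an unadjusted p under 0.05 (5.52%). The log2 difference of Oxct2b was -0.77 ± 0.26 (SE, unadjusted p = 0.00726, edgeR), that of Gramd2 -0.67 ± 0.25 (SE, unadjusted p = 0.0133) and that of Gucy2e -0.54 ± 0.25 (SE, unadjusted p = 0.0428). RP23-428C21.5 was higher by 0.67 ± 0.29 (SE, unadjusted p = 0.0292). Gpt2 was higher by 0.62 ± 0.19 (SE, unadjusted p = 0.00372), with means of 26.4 ± 7.04 and 42.0 ± 5.35 (SD), and Tlr9 had a log2 difference of -0.81 ± 0.24 (SE, unadjusted p = 0.00239). Tsc22d3 was at 0.40 ± 0.29 and Etnppl at 0.49 ± 0.30 (SE), neither of which reached an unadjusted p of 0.05.

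Other rows did not carry over. Fcer2a had a log2 difference of 0.04 ± 0.25 (SE) in Q5A, and Per1 one of -0.26 ± 0.26 (SE), with a Q5A mean of 16.1 ± 6.67 (SD) at ZT4 and 13 ± 3.74 (SD) at ZT16. Cartpt had a log2 difference of -0.96 ± 0.42 (SE) in Q5A, against 0.89 in the controls. When the 2 contrasts were compared directly, 0 of 12133 genes passed (0%, edgeR), with 742 at an unadjusted p under 0.05 and 0 called by DESeq2. Cohort 1 alone gave 1473 of 11020 genes at that level, with none called and a lowest adjusted p of 0.0603 (edgeR). The unadjusted interaction p was 0.00272 for Fcer2a, 0.00436 for Per1, 0.00263 for Cartpt and 0.0372 for Tsc22d3, each with an adjusted p of 0.812 (edgeR). Of the 64 genes called without cohort 3, 59 were tested in Q5A, 48 of them had the same sign there, and 10 of the 59 also had an unadjusted p under 0.05. Over all 9863 genes tested in each arm, 51.3% had the same sign. Rows at an unadjusted p under 0.05 in the control contrast (edgeR) were split by direction. Of the 549 such rows that were higher at ZT16 in controls, 47.9% had the same sign in Q5A. Of the 496 that were lower, 62.9% did.

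**Figure D5:**
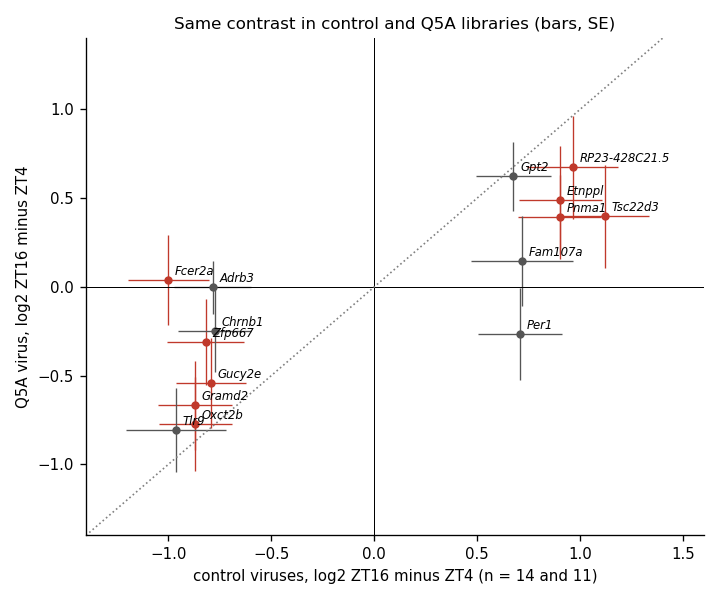
Log2 difference between ZT16 and ZT4 in control-virus samples (horizontal) and in Q5A samples (vertical) with SE bars, for the rows of smallest p in red and further named genes in grey, and a dotted line where both are equal. Oxct2b, Gramd2, Gucy2e, Gpt2 and Tlr9 lie on the same side of 0 in both, while Fcer2a is at -1.0 in controls and 0.04 in Q5A.

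The place of ZT4 and ZT16 within the day differed between the lower rows. In the control samples of the 6 times, Gucy2e had a mean of 65.2 ± 19.1 (SD, n = 11) at ZT4 and 72.8 ± 13.1 (SD, n = 13) at ZT8, and of 36.9 ± 10.9 (SD, n = 14) at ZT16 and 37.5 ± 21.1 (SD, n = 11) at ZT20. Oxct2b went the same way, with 42.5 ± 13.3 and 45.0 ± 10.6 at ZT4 and ZT8, and 22.3 ± 8.63 and 21.2 ± 11.7 at ZT16 and ZT20. Zfp667 was highest at ZT4 (45.5 ± 11.7) and lowest at ZT16 (25.1 ± 9.06), and its means at the other 4 times lay between 31.1 and 38.4. Among higher rows, Etnppl was at 13.1 or less at ZT0, ZT4 and ZT8 and at 20.5 or more at ZT12, ZT16 and ZT20, while Pnma1 was at 36.7 ± 12.7 at ZT16 and between 18.0 and 24.5 at all other times. Per1 had its highest mean at ZT12, at 17.9 ± 5.90 (SD, n = 13). These courses are descriptions, since ZT4 and ZT16 chose the rows.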

How the data were processed

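RNA-seq counts of TMN tissue were analysed. Per the labels and methods, the authors prepared polyadenylated RNA with a stranded ligation kit, aligned reads with STAR 2.7.11b to GRCm38 and deposited raw counts per gene name from HTSeq 2.0.5 (54087 gene rows, exons, union mode, same-strand setting). The 5 summary rows of each table stayed out of library sizes and tests, and 3.74% to 5.18% of uniquely placed reads were in gene rows. From the counts, ZT16 was compared with ZT4 in edgeR 4.0.16 (R 4.3.3) with TMM, filterByExpr (minimum count 10, minimum total 15), virus as covariate, the quasi-likelihood test, Benjamini-Hochberg adjustment at 0.05 and a prior count of 2. SE is the log2 difference divided by the root of F. DESeq2 1.42.0 was the alternative tool. The procedure was tested on simulated data. Positions came from GENCODE M21 (28499 names matched). No pair of control samples agreed within sampling noise, and 1 pair of Q5A tables held the same counts in nearly all rows and was counted once. Labels name no animals, and per the methods tissue was not pooled between animals. Another 18 files, recorded for no sample, were left out. Named were the 5 rows of smallest p per direction, called list members (none), and Per1, Per2, Dbp, Nr1d1, Clock, Ciart and Cirbp, the members past the filter of a set of clock and activity genes. The members and gene lists were chosen with earlier results of these data known.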

Additional observations from a re-analysis of the deposited data

Results flagged for a closer look

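Values that stood far from the rest of their own group of virus and ZT were looked for in 92 groups of values, of which chance alone would flag about 1 in 20, or 4.6. There were 10. The H3.3 ZT4 sample of cohort 3, replicate 1, gave 4 of them. Its share of uniquely placed reads in gene rows was 4.70% where the nearest of its group had 3.94%, its share in rows with no exon on the other strand was 19.5% against 11.8%, its share in rows with no annotated position was 31.4% against 36.0%, and its Etnppl count was 31.2 against 12.3. The other 6 were single values in other samples. Etnppl was at 42.6 in H3.3 ZT16 cohort 2 replicate 2, RP23-428C21.5 at 41.4 in H3.3 ZT4 cohort 1 replicate 1, and Dbp at 67.1 in H3.3 ZT16 cohort 3 replicate 1. Total gene reads were 1202114 in GFP ZT16 cohort 1 replicate 5 and 1341591 in GFP ZT4 cohort 1 replicate 2, each the lowest of its group, and the 10 largest rows took 15.7% of gene reads in H3.3 ZT4 cohort 1 replicate 2. The causes were not tested.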

How the results depend on the processing

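The count of 0 called genes stayed at 0 with median-of-ratios size factors, a mean count of 10 or more, cohort as covariate, GFP or H3.3 alone, no virus covariate, robust or legacy dispersion, a smaller prior count and an adjusted p under 0.01. It was 15 under DESeq2, 100 with no filter on low counts (30085 genes), 23 in cohort 1 only and 51 with all samples in 1 fit. Settings chosen after seeing the data gave 64 without cohort 3, 5 with the share of rows without an opposite exon as covariate and 5 with only those rows normalised and tested. Leaving out single samples gave 0 to 60 calls and 938 to 2232 genes at an unadjusted p under 0.05. The latter count, 1211, became 2627 without a filter, 265 in H3.3 alone, 1829 with all samples, 2048 without cohort 3 and 536 with only rows without an opposite exon (4981 genes). Both interaction counts stayed at 0 in the 5 settings tried, the block among them, while genes at an unadjusted p under 0.05 for the virus interaction went from 213 to 364 in cohort 1 only and 344 with the block. A block of cohort and replicate number gave 0 calls. The labels do not say whether the numbers pair the samples, and these values do not settle it. The correlation of deviations had a median of 0.11 in 27 same-numbered pairs and 0.02 in other pairs of the same cohort. Of the 27 pairs, 13 had a value of 0.1 or less (-0.22 to 0.45), and 10 of 25 samples were closest to one of their own number.

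The difference in total reads turned to -126803 in cohort 1 and -96989 in GFP alone. The log2 difference of Ciart turned to 0.31 in H3.3 alone, and that of Cirbp to 0.0075 without cohort 3, with a range of -0.15 to 0.045 over single samples left out (0.045 without H3.3 ZT4 cohort 3 replicate 1). The 5 higher rows of smallest p kept their direction in all 202 values refitted and were called in 39, and the 5 lower rows in 209 and 35. These rows were chosen by their p in the same samples that the refits share, so a kept direction was nearly certain. Of the listed genes, Tsc22d3 was called under DESeq2, in cohort 1 only, with no filter, with all samples, in the settings chosen after seeing the data and without each of 3 single samples. Ubb was called without cohort 3 and Ubb and Dnajb1 without H3.3 ZT4 cohort 3 replicate 1. No filter also called Hdc, Pmch, Cartpt, Mt1, Ptgds, Prph, Slc17a8, C1qb, Foxj1 and Hbb-bs. The causes were not tested. The few reads in gene rows limit these results, since 9 reads per sample carry Tsc22d3 and 4 reads Hdc, Fos and Cry1, and a prior count of 2 understates differences of such rows. Cohorts 2 and 3 hold too few samples for values of their own.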
